A study of Danio rerio with 8 samples.

Results

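Complement is a cascade of plasma and tissue proteins that tags targets and recruits phagocytes. In mammals the classical route starts with C1, which cleaves C4, and the lectin route reaches C4 through MASP enzymes. C4 fragments help to form the enzyme that cleaves C3, and C3 fragments mark surfaces and build the enzyme that cleaves C5. The alternative route amplifies C3 cleavage through factor B, which factor D cuts, while factor H and the C1 inhibitor restrain the cascade. In the mammalian brain the cascade is known for its part in the removal of synapses, with glial cells among the sources of C3 and C4. All roles given here are those known in mammals.

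Complement components and regulators outside C1q were examined, as 9 genes of the 31388 in the table. They are c4, c4b, c3a.1, c3b.1, c5, cfb, cfd, cfh and serping1, and all 9 were found by their exact zebrafish gene name. The genes were chosen by name with values of all 4 groups already known, so their differences are given as a description and serve as support for nothing else. The filter on low counts kept 7 of the 9, and c5 and cfb did not pass it.

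The libraries came from brains of Tg(her4.1:EGFP) zebrafish at 6 months post fertilization, in which the her4.1 promoter drives green fluorescent protein (GFP) in radial glia, the neural progenitors of the adult fish brain. Brains received interleukin-4 (IL4) peptide, a cytokine, or phosphate-buffered saline (PBS), and were dissociated 24 hours later and sorted by flow cytometry. The 4 groups were IL4 GFP-positive, PBS GFP-positive, IL4 GFP-negative and PBS GFP-negative cells, with 2 libraries each and the reporter in every fish. The series' design text describes other peptides and a later time, and the labels of the libraries were followed. The labels do not say whether the replicates were separate fish or pools, so a p-value may measure technical spread.

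The depth of a library was between 19242851 and 26582271 counts, with 23243 to 25404 genes detected. The gene her4.1, whose promoter drives the reporter, averaged 976 ± 16.9 CPM (counts per library of equal scaled size) in IL4 GFP-positive and 1346 ± 43.4 in PBS GFP-positive cells, against 9.70 ± 1.09 in IL4 GFP-negative and 9.25 ± 0.02 in PBS GFP-negative cells (SD, n = 2 each). The fractions therefore matched their labels. The GFP-positive libraries also held RNA of microglial genes at a lower level, which is described with the results it touches. In sorted bulk samples, fewer cells of a type and less RNA per cell cannot be told apart.

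Per length, cfd was the most abundant of the 9 genes and the only 1 among the upper levels of the transcriptome. Its mean over the 8 libraries was 21.2 RPKM, which is CPM per kilobase of exon, above 90.7% of all genes. c4 and c4b followed at 1.66 and 1.37 RPKM, near the middle of all genes. These ranks are among all 31388 genes of the table, which include 10880 that the filter on low counts removed. cfh averaged 0.550 and c3b.1 0.314 RPKM. serping1, c3a.1, c5 and cfb stood at 0.110, 0.0750, 0.0185 and 0.0163 RPKM, and the last 2 had 16 and 7 counts in all libraries together. Statements on c3a.1, c5, cfb and serping1 rest on few reads.

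**Figure D1:**
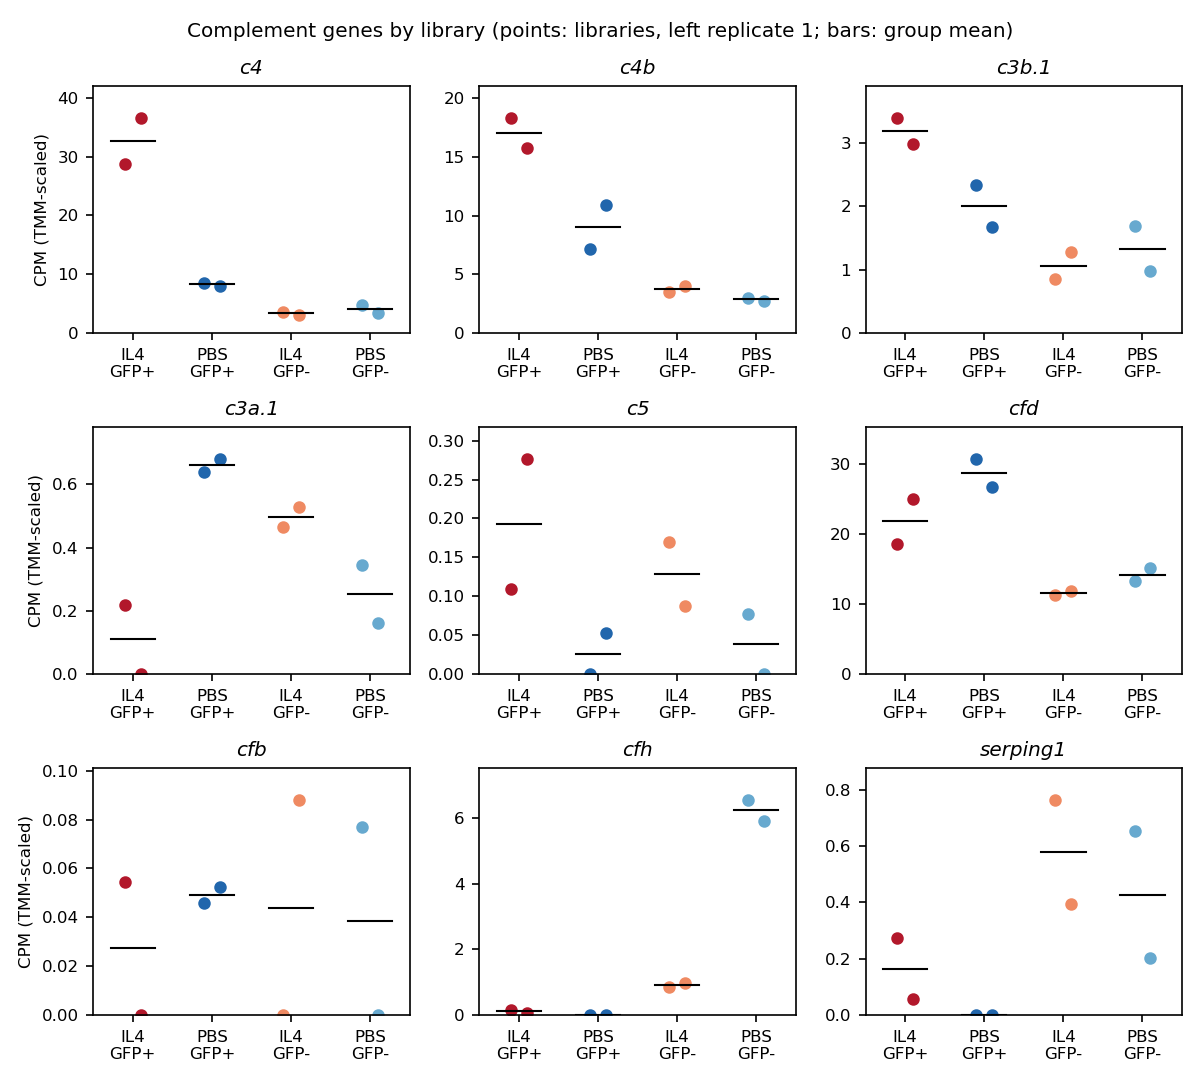
CPM of each of the 9 complement genes by group (TMM-scaled, linear axis from 0, a separate scale for each gene). Points are libraries, replicate 1 on the left, and bars are group means (n = 2). c4 and c4b were highest in IL4 GFP-positive cells, cfd in PBS GFP-positive cells, and cfh in PBS GFP-negative cells.

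c4 encodes complement component C4, the shared substrate of the classical and lectin routes. The gene lies on chromosome 15 at 32493907 to 32525550 (GRCz10, minus strand, ENSDARG00000015065). In IL4 GFP-positive cells c4 had 28.8 and 36.6 CPM, from 527 and 662 counts, against 8.55 and 8.0 CPM in PBS GFP-positive cells, from 187 and 153 counts. The GFP-negative libraries had 3.60 and 3.12 CPM after IL4, against 4.73 and 3.44 CPM after PBS. Both IL4 GFP-positive libraries lay far above the other 6, and both PBS GFP-positive libraries lay above the 4 GFP-negative ones, whose groups overlapped each other. The log2 fold change of IL4 over PBS was 1.98 ± 0.18 in GFP-positive cells and -0.28 ± 0.22 in GFP-negative cells (SE).

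Of the 7274 exonic bases of c4, 1943 overlap exons of TRIM3 on the opposite strand, which is 26.7%. The strand setting of the counting was not given in the sources used here, so reads in that stretch cannot be assigned to either gene with certainty. TRIM3, named for this overlap after its values were seen, had 75 and 90 counts in IL4 GFP-positive and 75 and 84 counts in PBS GFP-positive cells. Its log2 fold change there was 0.22 ± 0.24, with an adjusted p of 0.552 by edgeR's quasi-likelihood test with Benjamini-Hochberg adjustment. TRIM3 was lower in GFP-positive than in GFP-negative cells, by 1.1 after IL4 and 1.04 after PBS on the log2 scale. The shared stretch leaves the counts of TRIM3 uncertain as well. The part of that stretch in the values of c4 was not tested.

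c4b is a second C4 gene, on chromosome 16 at 16757226 to 16793741 (minus strand, ENSDARG00000038424). It had 18.3 and 15.8 CPM in IL4 GFP-positive cells, against 7.18 and 10.9 CPM in PBS GFP-positive cells. In IL4 GFP-negative cells it had 3.52 and 4.0 CPM, against 3.0 and 2.75 CPM in PBS GFP-negative cells. The 4 groups did not overlap, and their order differed from that of c4 only among GFP-negative cells, where c4b was slightly higher after IL4. The log2 fold change of IL4 over PBS was 0.92 ± 0.21 in GFP-positive and 0.38 ± 0.25 in GFP-negative cells. The GFP-positive value was 0.59 and no longer passed without PBS GFP-positive replicate 1, the lower of its 2 libraries.

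The balance between the C4 genes can be read within a library. On the per-length scale c4 made up 56.4% and 65.5% of the sum of c4 and c4b in IL4 GFP-positive cells, against 49.5% and 37.7% in PBS GFP-positive cells. Its share was 45.7% and 39.1% in IL4 GFP-negative cells, against 56.4% and 50.7% in PBS GFP-negative cells. The share of c4 was thus higher after IL4 in GFP-positive cells and lower after IL4 in GFP-negative cells. The 2 libraries per group did not overlap in either fraction. In GFP-negative cells neither change behind the share passed, -0.28 for c4 and 0.38 for c4b. The share divides by all 7274 bases of c4, including the 1943 that overlap TRIM3, so it carries the uncertainty of that stretch. The difference between the genes was not tested.

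C3, cleaved at the step where all routes meet, has several gene copies in zebrafish. Copies of high similarity may share reads. How the counting treated a read that aligned to more than 1 copy was not given in the sources used here, so the counts of each copy are uncertain. c3b.1, on chromosome 22 at 26160287 to 26216378 (minus strand, ENSDARG00000093068), shares 104 exonic bases with its neighbour c3b.2. It had 3.39 and 2.98 CPM in IL4 GFP-positive cells, against 2.33 and 1.67 CPM in PBS GFP-positive cells. The GFP-negative libraries gave 0.848 and 1.27 CPM after IL4, against 1.69 and 0.972 CPM after PBS. The IL4 GFP-positive libraries were the highest pair, and the other 3 groups overlapped their neighbours in order of level. The log2 fold changes of IL4 over PBS, 0.66 ± 0.39 in GFP-positive and -0.33 ± 0.42 in GFP-negative cells, did not pass.

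c3a.1, on chromosome 1 at 55460926 to 55507680 (minus strand, ENSDARG00000012694), was counted at a low level. It had 4 and 0 counts in IL4 GFP-positive cells, against 14 and 13 counts in PBS GFP-positive cells. In IL4 GFP-negative cells it had 11 and 12 counts, against 9 and 4 counts in PBS GFP-negative cells. The order was thus PBS GFP-positive, then IL4 GFP-negative, then PBS GFP-negative and IL4 GFP-positive, of which the last 2 overlapped. In GFP-positive cells the log2 fold change of IL4 over PBS was -2.53 ± 0.90, and the ratio of summed counts, PBS over IL4, was 6.00 with a 95% counting interval of 2.09 to 23.6. In GFP-negative cells it was 0.94 ± 0.75, which did not pass. The GFP-positive call ended with the replicate number as a block and in 7 of the 8 fits without 1 library. Of those 8 it was kept only without IL4 GFP-positive replicate 1, a fit that leaves that group 1 library with 0 counts. c3a.1 also had no call with DESeq2.

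c5 encodes the target of the late convertase and the source of the chemoattractant C5a. The gene lies on chromosome 5 at 62764794 to 62816203 (minus strand, ENSDARG00000021004). It had 2 and 5 counts in IL4 GFP-positive cells, against 0 and 1 in PBS GFP-positive cells. There were 4 and 2 counts in IL4 GFP-negative cells, against 2 and 0 in PBS GFP-negative cells. The ratio of summed counts in GFP-positive cells was 7.88, with a counting interval of 1.01 to 355, and the gene did not pass the filter on low counts. cfb, on chromosome 21 at 27379589 to 27394702 (plus strand, ENSDARG00000055278), encodes factor B. It had between 0 and 2 counts in each of the 8 libraries, so no difference could be detected at this depth.

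cfd encodes factor D, the serine protease that cuts factor B. The gene lies on chromosome 13 at 13550689 to 13553342 (plus strand, ENSDARG00000039579). It had 18.6 and 25.1 CPM in IL4 GFP-positive cells, against 30.7 and 26.7 CPM in PBS GFP-positive cells. In IL4 GFP-negative cells it had 11.2 and 11.9 CPM, against 13.3 and 15.2 CPM in PBS GFP-negative cells. In each fraction both IL4 libraries were below both PBS libraries, and every GFP-positive library was above every GFP-negative one. The log2 fold changes of IL4 over PBS were -0.40 ± 0.15 in GFP-positive and -0.30 ± 0.16 in GFP-negative cells, and neither passed. The GFP-positive value did pass in 4 other fits, at -0.45 with relative log expression (RLE) scaling and with DESeq2, -0.42 with limma voom and -0.40 with no filter on low counts. It also passed without PBS GFP-positive replicate 2, at -0.56, and without IL4 GFP-positive replicate 2, at -0.69. The level of cfd thus stood apart from that of cfb, which had at most 2 counts in any library. That holds for cfb only, since the factor B-like gene cfbl, described below, was counted mainly in GFP-negative cells.

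cfh encodes factor H, the main restraint on the alternative route in plasma, on chromosome 22 at 23615379 to 23721721 (minus strand, ENSDARG00000100442). It had 20 and 22 counts in IL4 GFP-negative cells, against 170 and 146 counts in PBS GFP-negative cells. In GFP-positive cells it had 3 and 1 counts after IL4, against 0 and 0 after PBS. The gene was thus counted mainly in PBS GFP-negative libraries, which lay far above the IL4 GFP-negative ones. In GFP-negative cells the log2 fold change of IL4 over PBS was -2.77 ± 0.38. In GFP-positive cells the 4 counts after IL4 were 1.5-fold higher than a floor of 3 counts over the PBS group. That value leaves out the counting error of the 4 counts, and the difference did not pass. Small parts of its exons, 250 and 267 bases, are shared with cfhl1 and cfhl2.

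serping1 encodes the C1 inhibitor, which blocks C1r, C1s and the MASP enzymes, on chromosome 8 at 13922950 to 13934921 (minus strand, ENSDARG00000058053). It had 5 and 1 counts in IL4 GFP-positive cells, against 0 and 0 in PBS GFP-positive cells. There were 18 and 9 counts in IL4 GFP-negative cells, against 17 and 5 in PBS GFP-negative cells. The GFP-negative groups overlapped, with a log2 fold change of IL4 over PBS of 0.43 ± 0.72. In GFP-positive cells the 6 counts after IL4 were 2.25-fold higher than a floor of 3 counts over the PBS group. That value leaves out the counting error of the 6 counts, and the difference did not pass. PBS GFP-positive cells were thus the group with 0 counts for both regulators, a count that allows up to 3 in the group.

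The members' calls are given beside the share of all genes, and with 7 genes tested each count is small. After IL4 in GFP-positive cells, 2 of the 7 tested members were higher, c4 and c4b, and 1 was lower, c3a.1. Over all 20508 genes tested, 13.9% were higher and 14.8% were lower. With library totals in place of TMM scaling, the split over all genes was 3476 higher and 2410 lower, against 2847 and 3042 with TMM. The median log2 fold change of the 7 was 0.92, or 0.66 with the genes at 0 counts set at their bound, against 0.01 over all genes. In GFP-negative cells 0 members were higher and 1 was lower, cfh, where 9.04% of all genes were higher and 15.4% lower. The members' median there was -0.28 and that of all genes -0.02.

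**Figure D2:**
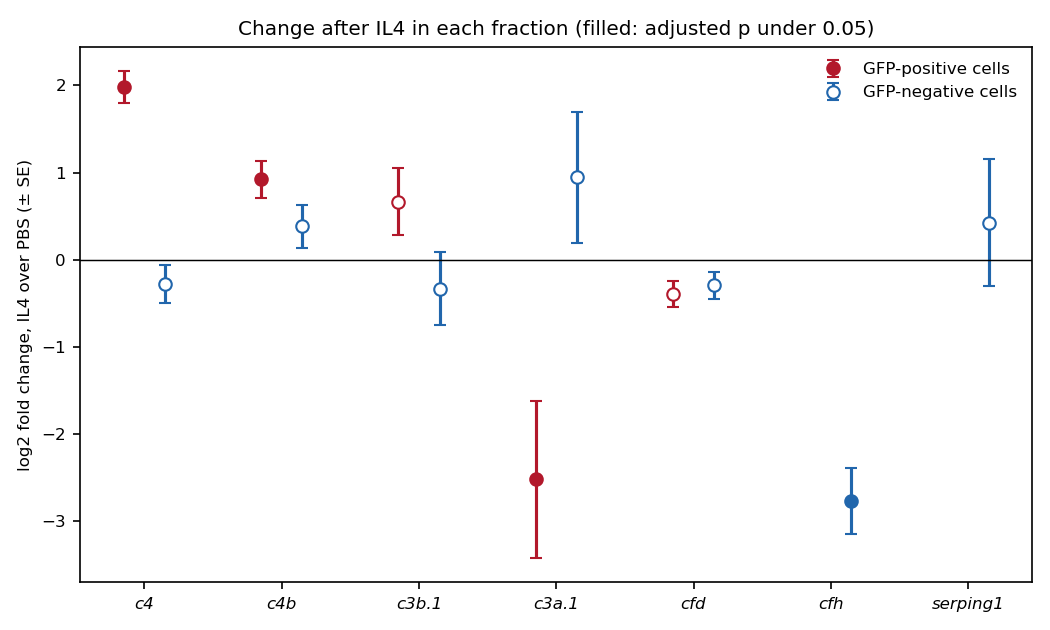
Log2 fold change of IL4 over PBS for the 7 members that passed the filter, in GFP-positive cells (red) and GFP-negative cells (blue). Error bars are ± SE, and filled points passed at an adjusted p under 0.05. GFP-positive values of cfh and serping1 are not drawn, since PBS GFP-positive libraries had 0 counts. c4 was at 1.98 in GFP-positive and -0.28 in GFP-negative cells.

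The change after IL4 in GFP-positive cells minus that in GFP-negative cells was tested as an interaction. 2 members were higher, c4 and cfh, and 1 was lower, c3a.1, while 11.5% of all genes were higher and 7.26% lower. For all genes the split was 2355 higher and 1488 lower with TMM, 1941 and 1850 with RLE, and 2623 and 1244 with library totals. The difference was 2.26 ± 0.29 for c4 and -3.47 ± 1.18 for c3a.1 on the log2 scale. It was 0.54 ± 0.33 for c4b, 1.0 ± 0.57 for c3b.1 and -0.10 ± 0.22 for cfd, none of which passed. The fitted value of cfh, 7.11 ± 1.75, rests on the 0 counts in PBS GFP-positive cells and its size is no bound. The cfh call ended without IL4 GFP-positive replicate 1, and the c3a.1 call ended with library totals, with the replicate block and in 7 of the 8 fits without 1 library. With DESeq2, c3a.1 had no call here either. The members' median was 1.0, or 0.75 with genes at 0 counts at their bound, against 0.07 over all genes.

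Between the fractions, the C4 genes and cfd were on the GFP-positive side and the regulators cfh and serping1 on the GFP-negative side. Both regulators passed the filter on low counts only through GFP-negative libraries. Their place on that side is therefore a description that the filter helped to set, and it supports nothing. The number called, 5 of the 7 in each comparison, is near the share of any gene. Over all 20508 genes tested, 14713 were called after PBS and 13666 after IL4. After PBS, 3 of the 7 members were higher in GFP-positive than in GFP-negative cells, and 2 were lower, where 32.6% of all genes were higher and 39.1% lower. The higher members were c4 with a log2 difference of 1.02 ± 0.20, c4b with 1.64 ± 0.23 and cfd with 1.02 ± 0.15. cfh had 0 counts in PBS GFP-positive cells, against 316 in PBS GFP-negative cells, and was 85.2-fold lower with the floor of 3 counts. serping1 had 0 counts, against 22, and was 5.93-fold lower with the same floor.

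After IL4, 4 members were higher in GFP-positive cells and 1 was lower, where 32.4% of all genes were higher and 34.3% lower. The log2 differences were 3.28 ± 0.20 for c4, 2.18 ± 0.23 for c4b, 1.58 ± 0.41 for c3b.1, 0.91 ± 0.16 for cfd and -2.98 ± 0.65 for cfh. c3a.1 at -2.12 ± 0.93 and serping1 at -1.78 ± 0.89 did not pass. With library totals, the median of all genes shifted by -0.44 after IL4 and by -0.48 after PBS. The split over all genes became 4332 higher and 9833 lower after IL4, against 6642 and 7024 with TMM, and 4231 and 10753 after PBS, against 6691 and 8022. On that scale c4 was at 0.53, c4b at 1.16 and cfd at 0.53 after PBS, and all 3 still passed.

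The rest of the pathway was taken from a list of complement genes, of which 57 were found and 40 passed the filter. After IL4, 5 of the 40 were higher and 10 lower in GFP-positive cells, with a median log2 fold change of -0.15, or -0.12 with a gene at 0 counts set at its bound. Over all genes 13.9% were higher and 14.8% lower there, so the count of higher genes was near the share of any gene. In GFP-negative cells 3 were higher and 17 lower, with a median of -0.51, where 9.04% of all genes were higher and 15.4% lower. In the interaction 10 of the 40 were higher and 0 were lower, with a median of 0.24, where 11.5% of all genes were higher and 7.26% lower with TMM, a split that depends on the scaling as given above. For genes outside the 9 members, adjusted p-values are from edgeR's quasi-likelihood test with Benjamini-Hochberg adjustment over all genes tested.

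The C1q genes encode the recognition part of C1, upstream of C4, and fell in both fractions. c1qc had 29 and 25 counts in IL4 GFP-positive against 200 and 194 in PBS GFP-positive cells, and 534 and 515 counts in IL4 GFP-negative against 2717 and 2737 in PBS GFP-negative cells. Its log2 fold changes were -2.69 ± 0.18 (edgeR adjusted p = 1.17e-09) and -2.25 ± 0.10 (1.0e-12). c1qa changed by -2.60 ± 0.31 and -2.18 ± 0.16 (edgeR adjusted p = 2.25e-06 and 1.46e-09), and c1qb by -1.31 ± 0.18 and -2.06 ± 0.11 (1.86e-05 and 2.81e-11). The decrease of c1qb was the smaller in GFP-positive cells, with an interaction of 0.74 ± 0.22 (edgeR adjusted p = 0.0242) that did not pass with limma voom. c1s.1, a C1s protease gene, fell by 1.08 ± 0.29 in GFP-positive cells (edgeR adjusted p = 0.00825), and its -0.57 in GFP-negative cells did not pass (0.133). The GFP-positive call ended without PBS GFP-positive replicate 1, at -0.77. c4 and c4b were thus higher after IL4 in GFP-positive cells in the same libraries in which all 4 tested genes of the C1 list fell. Of all genes tested, 14.8% were lower there.

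In the lectin route 0 of 6 tested genes were higher after IL4 in either fraction, while 1 was lower in GFP-positive and 3 in GFP-negative cells. The shares over all genes were 13.9% higher with 14.8% lower in the GFP-positive fraction, and 9.04% higher with 15.4% lower in the GFP-negative fraction, so the higher counts and the GFP-positive lower count are near those shares. COLEC11, a collectin, was at 0.37 in GFP-positive cells (edgeR adjusted p = 0.407) and fell by 1.01 ± 0.37 in GFP-negative cells (0.0499). Its interaction was 1.38 ± 0.48 (edgeR adjusted p = 0.0497), and neither value passed with RLE scaling, DESeq2, limma voom or the replicate block. Without PBS GFP-negative replicate 1 the GFP-negative value was -0.48. MASP1, which encodes a lectin-route protease and was named after its values were seen, had 450 and 549 counts in IL4 GFP-positive and 903 and 736 in PBS GFP-positive cells, against 59 and 51 in IL4 GFP-negative and 84 and 67 in PBS GFP-negative cells. MASP1 was higher in GFP-positive than in GFP-negative cells, by 3.53 ± 0.18 after IL4 and 3.74 ± 0.17 after PBS. It fell after IL4 in GFP-positive cells, by 0.54 ± 0.14 (edgeR adjusted p = 0.00586), a call that ended without IL4 GFP-positive replicate 1.

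Other copies of C3 were also counted. c3a.4 had 0 and 1 counts in IL4 GFP-positive against 13 and 9 in PBS GFP-positive cells, and 16 and 20 in IL4 GFP-negative against 212 and 196 in PBS GFP-negative cells. It fell in both fractions, with log2 fold changes of -4.03 ± 0.92 (edgeR adjusted p = 0.00228) and -3.36 ± 0.35 (4.01e-07). With 1 count after IL4, the GFP-positive ratio of PBS over IL4 was 19.5, with a counting interval of 3.16 to 807. c3b.2, the neighbour of c3b.1 and named after its values were seen, had 19 and 38 counts in IL4 GFP-positive against 13 and 3 in PBS GFP-positive cells, and 18 and 15 in IL4 GFP-negative against 28 and 24 in PBS GFP-negative cells. It rose there by 2.01 ± 0.61 (edgeR adjusted p = 0.0169) and was at -0.52 in GFP-negative cells (0.562). That rise did not pass without PBS GFP-positive replicate 2, at 1.33, or without IL4 GFP-positive replicate 2, at 1.36.

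**Figure D3:**
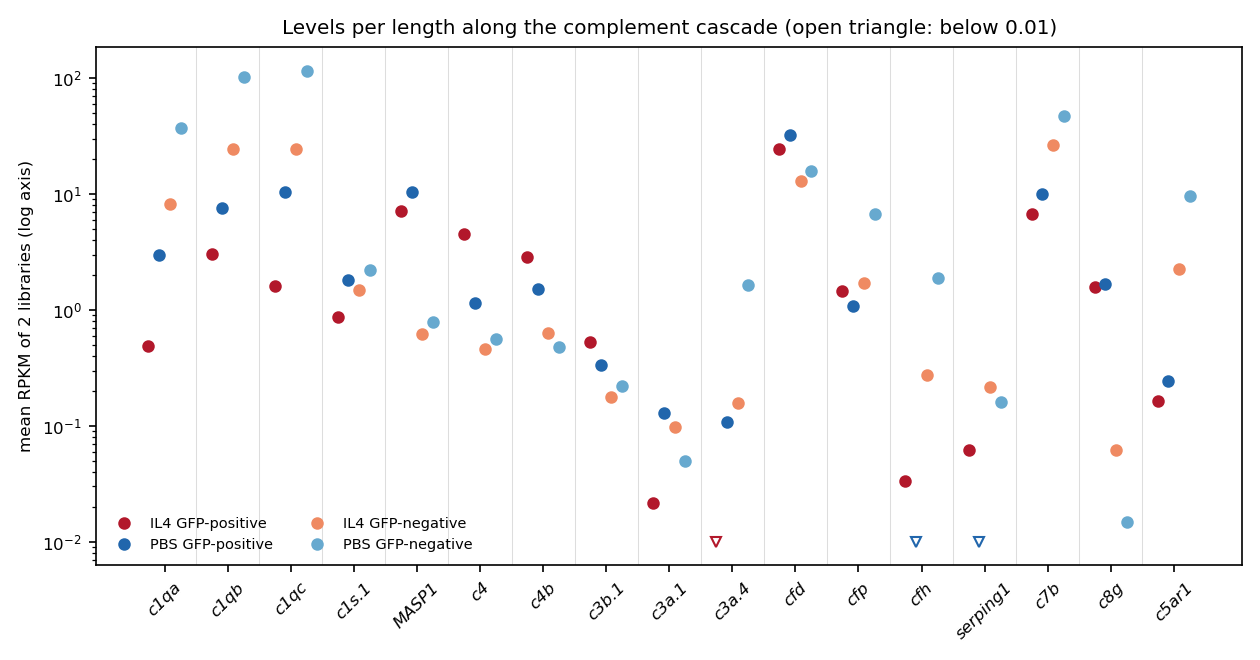
Mean RPKM of 2 libraries per group on a log axis, for the 7 members that passed the filter and other complement genes. The members c5 and cfb are not drawn. Genes run roughly along the cascade, from C1q on the left to the receptor c5ar1 on the right, with the regulators cfh and serping1 side by side. Open triangles mark means below 0.01. C1q, cfp, cfh, c7b and c5ar1 had their highest level in PBS GFP-negative cells, and c4, c4b and c3b.1 theirs in IL4 GFP-positive cells.

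Of the other alternative-route and fluid-phase genes, 5 were tested. cfp encodes properdin, which stabilizes the alternative convertase. It had 8.58 and 9.11 CPM in IL4 GFP-positive against 6.22 and 6.80 CPM in PBS GFP-positive cells, and 10.1 and 10.3 CPM in IL4 GFP-negative against 41.0 and 40.4 CPM in PBS GFP-negative cells. cfp fell by 1.99 ± 0.14 in GFP-negative cells (edgeR adjusted p = 8.29e-10), and its interaction was 2.44 ± 0.21 (7.28e-08). In GFP-positive cells its 0.44 ± 0.16 passed narrowly (edgeR adjusted p = 0.0418) and did not pass with RLE scaling, no filter, DESeq2, limma voom, the replicate block or without any 1 library. cfp shares 623 of its exonic bases with another gene on the same strand. VTN on chromosome 21 (ENSDARG00000053831), a vitronectin copy, fell in GFP-negative cells by 1.99 ± 0.41 (edgeR adjusted p = 0.00109). cfbl, a factor B-like gene outside the list and named after its values were seen, had 1 and 4 counts in IL4 GFP-positive, 2 and 6 in PBS GFP-positive, 81 and 67 in IL4 GFP-negative and 211 and 235 in PBS GFP-negative cells. It fell in GFP-negative cells by 1.46 ± 0.30 (edgeR adjusted p = 0.000928), in the same libraries in which cfb was near 0.

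Of 6 tested genes of the terminal attack complex, 1 was lower and 0 were higher after IL4 in each fraction, close to the 14.8% and 15.4% of all genes that were lower in GFP-positive and GFP-negative cells. That gene was c7b, which encodes a C7 component and was named after its values were seen. It fell by 0.57 ± 0.10 in GFP-positive (edgeR adjusted p = 0.000150) and 0.83 ± 0.08 in GFP-negative cells (9.93e-08). c8g, the C8 gamma chain, also named after its values were seen, was counted in GFP-positive cells, with 27 and 51 counts after IL4 and 47 and 47 after PBS, against 3 and 1 in IL4 GFP-negative and 0 and 1 in PBS GFP-negative cells.

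Among receptors, 2 of 5 rose after IL4 in GFP-positive cells, where 13.9% of all genes were higher. In GFP-negative cells 3 fell, where 15.4% of all genes were lower. The 5 include CALR and itgam.2, another itgam copy, which the rule for naming genes left out. The riser other than itgam.1 is among these. itgam.1, a chain of complement receptor CR3, had 66 and 101 counts in IL4 GFP-positive against 26 and 40 in PBS GFP-positive cells, and 85 and 117 in IL4 GFP-negative against 360 and 282 in PBS GFP-negative cells. It rose by 1.5 ± 0.32 in GFP-positive cells (edgeR adjusted p = 0.00145) and fell by 1.53 ± 0.26 in GFP-negative cells (0.000170), with an interaction of 3.03 ± 0.42 (2.81e-05). Its partner chain itgb2 was at 0.04 in GFP-positive cells (edgeR adjusted p = 0.945) and fell by 0.97 ± 0.14 in GFP-negative cells (3.19e-05). c5ar1, the receptor of C5a, had 2 and 6 counts in IL4 GFP-positive and 5 and 8 in PBS GFP-positive cells, and fell in GFP-negative cells by 2.08 ± 0.27 (edgeR adjusted p = 5.01e-06). rca2.2, a gene of the regulators of complement activation, fell by 0.76 ± 0.24 in GFP-positive (edgeR adjusted p = 0.0248) and by 1.69 ± 0.19 in GFP-negative cells (1.11e-06). The GFP-positive call of rca2.2 ended with limma voom, without PBS GFP-positive replicate 2 and without IL4 GFP-positive replicate 1. rca2.2 belongs to a list of 11 tested membrane regulators. After IL4, 1 was higher and 2 lower in GFP-positive cells, with a median of 0.15, where 13.9% of all genes were higher and 14.8% lower. In GFP-negative cells 3 were higher and 2 lower, with a median of 0.23, where 9.04% of all genes were higher and 15.4% lower.

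**Figure D4:**
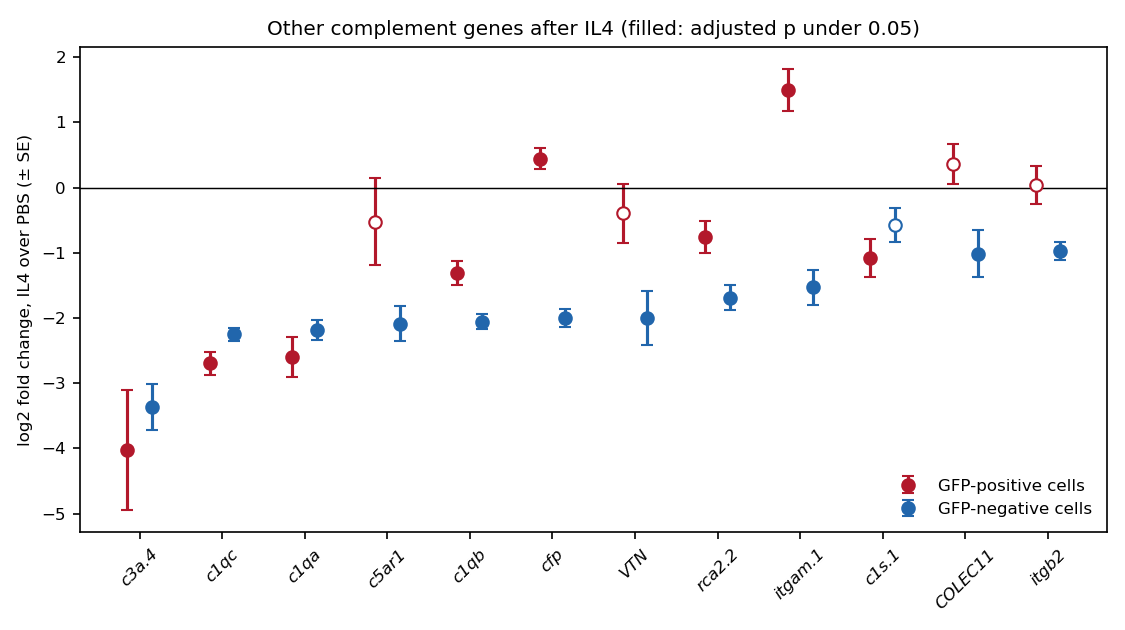
Log2 fold change of IL4 over PBS for the 12 other complement genes named by rule, in GFP-positive (red) and GFP-negative cells (blue). Error bars are ± SE, and filled points passed at an adjusted p under 0.05. itgam.1 was at 1.5 in GFP-positive and -1.53 in GFP-negative cells, and the C1q genes were below 0 in both.

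Markers of other cell types moved with some of these results. The 24 markers of microglia and macrophages summed to 351 to 358 CPM in IL4 GFP-positive libraries, 876 in both PBS GFP-positive libraries, 2585 to 2648 in IL4 GFP-negative and 8190 to 8472 in PBS GFP-negative libraries. Of 22 tested, 16 were lower after IL4 in GFP-positive and 19 in GFP-negative cells, and 0 were higher in either. The shares over all genes were 13.9% higher with 14.8% lower in GFP-positive cells, and 9.04% higher with 15.4% lower in GFP-negative cells. None of the 24 markers was at 0 counts except an MPEG1 and an MFAP4 copy in PBS GFP-positive cells. apoeb and cd74a made up most of the PBS GFP-negative sum, at means of 3835 and 2775 CPM. In GFP-positive cells ptprc, csf1rb and an MPEG1 copy were at 0.44, 0.11 and 1.24 and did not pass. The markers that passed moved in the same direction as cfh in GFP-negative cells and as the C1q genes in both fractions. In GFP-positive cells they moved opposite to c4 and c4b. The 15 endothelial markers summed to 83.2 to 89.5, 84.7 to 87.7, 87.0 to 91.3 and 252 to 264 CPM in the same order of groups, and 12 were lower after IL4 in GFP-negative cells. Between the fractions, 13 were lower and 1 higher in GFP-positive cells after PBS, with a median log2 difference of -3.5. After IL4, 12 were lower and 2 higher there, with a median of -1.97. The 15 markers of mural cells and fibroblasts summed to 670 to 698, 607 to 624, 142 and 294 to 298 CPM, with 3 higher and 2 lower in GFP-positive and 8 lower in GFP-negative cells. Between the fractions, 5 were higher and 8 lower in GFP-positive cells after PBS, with a median log2 difference of -0.79. After IL4, 6 were higher and 6 lower there, with a median of -0.23. The sums of both lists thus hide markers that went the other way. Of all genes tested, 32.6% were higher and 39.1% lower in GFP-positive cells after PBS, and 32.4% and 34.3% after IL4. The higher counts of the mural list between the fractions are near those shares. Its 3 higher and 2 lower after IL4 in GFP-positive cells are also near the shares given above. The 12 hepatocyte markers summed to 16.5 to 17.6, 31.8 to 35.4, 50.3 to 51.7 and 118 to 128 CPM. The 8 lymphocyte markers instead summed to more after IL4 in both fractions, at 6.3 to 6.61, 2.93 to 3.75, 37.5 to 40.1 and 24.1 to 26.8 CPM. Of 6 tested, 2 were higher in GFP-positive and 1 in GFP-negative cells, with 0 lower. The 7 neutrophil markers summed to 9.0 to 9.83, 9.01 to 12.1, 161 to 167 and 248 to 253 CPM. Of 5 tested, 0 were higher and 1 lower in GFP-positive, and 1 higher and 3 lower in GFP-negative cells. With so few genes tested, a count of 0 or 1 in the lymphocyte and neutrophil lists is near the shares of all genes. The part of these markers in the results was not tested.

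Markers of radial glia summed to 39520 to 39620 CPM in IL4 GFP-positive and 51280 to 52410 CPM in PBS GFP-positive libraries, against 2699 to 2718 in IL4 GFP-negative and 2623 to 2647 in PBS GFP-negative ones. Of these 14 markers, 11 were lower and 0 higher after IL4 in GFP-positive cells, with a median log2 fold change of -0.37. In GFP-negative cells 4 were higher and 7 lower after IL4, with a median of -0.06. Neuronal markers summed to 1064 to 1070 in IL4 GFP-positive against 672 to 700 CPM in PBS GFP-positive libraries. In GFP-negative libraries they summed to 5749 to 5840 CPM after IL4, against 4242 to 4288 after PBS. Of these 14 neuronal markers, 7 were higher and 0 lower after IL4 in each fraction. Oligodendrocyte markers summed to 1598 to 1614, 1925 to 2005, 19730 to 19930 and 15080 to 15290 CPM in the same order of groups. Of these 8, 0 were higher and 6 lower in GFP-positive, and 4 higher and 1 lower in GFP-negative cells. Erythrocyte markers summed to 0.49 to 0.94, 0.63 to 1.19, 16.3 to 18.0 and 31.7 to 38.0 CPM in that order. Markers of ependyma and cilia summed to 139 to 156, 155 to 162, 17.6 to 20.0 and 28.5 to 29.1 CPM. The part of these lists in the changes of c4, c4b and cfd was not tested.

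Across the 8 libraries, the profile of c4 resembled that of few genes and the profile of cfd that of many. Pearson's r of log2 CPM exceeded 0.95 with 117 genes for c4 and with 807 for cfd. The closest to c4 was ldlra, with r of 0.998 and means of 60.1 CPM in IL4 GFP-positive, 16.4 in PBS GFP-positive, 7.57 in IL4 GFP-negative and 8.82 in PBS GFP-negative cells. It was followed by CCNL1 at 0.993, FOXP4 and tbc1d10aa both at 0.990, and SLIT3 at 0.988. In IL4 against PBS GFP-positive cells, CCNL1 had 256 against 191.5 CPM and FOXP4 had 227.2 against 147.4 CPM. There tbc1d10aa had 109.1 against 61.0 CPM and SLIT3 had 17.7 against 10.7 CPM. Pearson's r does not show the size of a change. For cfd the closest were NUDT6 at 0.993, then GAA, hps5, MYLIP and LSG1, all at 0.990. The libraries fall into 4 groups, so these values describe shared group patterns and carry no test.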

How the data were processed

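The deposited table holds whole-number read counts per gene that the authors made with featureCounts against GRCz10 (danRer10), per the submitters' processing notes. The aligner, the strand setting and the version of each tool are not given in the sources used here. The cDNA was primed from poly(A) tails and amplified without molecular identifiers, per the labels' protocols, so counting intervals cover counting error only.

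Counts were fitted in R 4.3.3 by the robust quasi-likelihood method of edgeR 4.0.16, after TMM scaling and filterByExpr (minimum count of 10), with a mean for each of the 4 groups and 4 residual degrees of freedom among the 8 libraries. The two-sided p-values were adjusted by Benjamini-Hochberg over the 20508 genes kept of 31388, and a gene passed under 0.05. SE is the log2 fold change divided by the square root of F. CPM use TMM-scaled totals of the tested genes, and RPKM divide by the deposited gene length. A group at 0 counts was bounded at 3 counts over the group, and intervals are 95% and exact. Fold values at that floor take the counts of the other group as exact.

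Members and lists were chosen with earlier results of these data known. Named were all members, up to 12 other complement genes with the largest change among those that passed in an IL4 comparison or the interaction at a mean of at least 1 CPM, and the 5 genes most correlated with cfd and c4, the members with the highest level per length. Genes outside this rule are marked. Alternatives were RLE factors, library totals, no filter, DESeq2 1.42.0, limma 3.58.1 voom, a replicate block, and leaving out each library, which assumes that the library left alone varies as the other groups do. No pairing of replicate numbers is stated in the labels, and none was used. Deviations of same-numbered libraries correlated by -0.0106 to 0.00662, which does not exclude that same-numbered fractions came from the same fish. The 2 libraries of each group differed by more than counting noise (2.73 to 4.85 for chi-square per gene).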

Additional observations from a re-analysis of the deposited data

Results flagged for a closer look

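The change after IL4 differed between the fractions for several complement genes, by the interaction term of the edgeR fit. Differences are log2, the change in GFP-positive minus the change in GFP-negative cells. Among the members, c4 was at 2.26, cfh at 7.11 and c3a.1 at -3.47. c4 had counts of 71 or more in every library, whereas cfh had 0 counts in PBS GFP-positive cells and c3a.1 at most 14 counts in any library.

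Among the other named genes, itgam.1 was at 3.03 and cfp at 2.44. c3b.2 was at 2.53 and COLEC11 at 1.38, calls that ended with the replicate block and in 6 of the 8 fits without 1 library. The COLEC11 call also ended with RLE, DESeq2 and limma voom. itgb2 was at 1.01, rca2.2 at 0.94 and c1qb at 0.74, and these 3 did not pass with limma voom. Their calls also ended in 6, 7 and 4 of the 8 fits without 1 library, in that order, and that of rca2.2 ended with RLE and DESeq2. Groups of 2 libraries are too small to look for a single library that stands apart.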

How the results depend on the processing

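The direction of the change after IL4 in GFP-positive cells held for all 7 tested members under all alternatives run. For cfh and serping1 that direction rests on a PBS group without counts. Leaving out 1 library at a time, the number of members called after IL4 in GFP-positive cells was 1 to 3, with 1 without PBS GFP-positive replicate 1, against 3 in all. Over all genes, calls in GFP-negative cells were 3184 to 5626 against 5016, lowest without IL4 GFP-negative replicate 2 (3234 without replicate 1), and in the interaction 2515 to 3898 against 3843, lowest without IL4 GFP-negative replicate 1. With the replicate number as a block, a pairing that the labels do not state, 2 members passed in GFP-positive cells and 2 in the interaction. Genes called were then 5679 in GFP-positive and 4817 in GFP-negative cells, 3598 in the interaction, and 13488 after IL4 and 14512 after PBS between the fractions.

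Some small values changed sign, and the cause was not tested. In GFP-positive cells itgb2 was at -0.013 with RLE and -0.012 with DESeq2, and between the fractions after IL4 VTN was at -0.20 and itgam.1 at -0.37 with library totals. Without 1 library, values in GFP-positive cells ran from -1.55 to 0.0053 for c5ar1, -0.35 to 0.46 for itgb2, -1.80 to 0.50 for cfbl and -0.70 to 0.24 for c8g. In GFP-negative cells they ran from -0.67 to 0.12 for c3b.1 and from -0.17 to 1.49 for serping1. In the interaction they ran from -0.41 to 0.028 for cfd, -3.30 to 0.14 for c3a.4 and -0.35 to 1.94 for cfbl. Between fractions they ran from -0.55 to 0.10 for c1s.1 after PBS, and from -0.32 to 0.65 for VTN and -0.27 to 0.37 for itgam.1 after IL4. Between fractions after IL4, c3a.1 also passed with RLE, library totals and voom, and serping1 with library totals. Low depth limits c5 and cfb, which the filter on low counts removed.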
